A study of Mus musculus with 6 samples.

Results

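The alpha and beta tubulin isotypes were examined in Ret-EGFP-positive cells sorted from embryonic mouse dorsal root ganglia, the ganglia that hold the cell bodies of somatic sensory neurons. The set comprised 10 genes of 41388 in the files, chosen by symbol: the alpha isotypes Tuba1a, Tuba1b, Tuba1c and Tuba4a, and the beta isotypes Tubb2a, Tubb2b, Tubb3, Tubb4a, Tubb4b and Tubb5. All 10 were found, and all 10 passed the filter on low counts. Microtubules are built from dimers of 1 alpha and 1 beta tubulin, and mammals encode each subunit in several genes whose products differ mainly in the acidic tail at the carboxyl end. Growing axons are filled with microtubules, and neurons are known for using a set of isotypes, Tubb3 above all, that most other cells use little. Tails are modified by enzymes that remove or restore a terminal tyrosine or add chains of glutamate, and tubulin mRNA is itself degraded when free dimers accumulate.

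The 6 libraries were 3 of female embryos (A, B and C) and 3 of male embryos (A, C and D), all at 18.5 dpc (days after coitum) and all C57BL/6. Every animal carried the reporter: the genotype label reads Tg(Ret-EGFP)SJ, while the series text describes EGFP placed in the Ret locus of heterozygotes, and these descriptions were not reconciled here. Ganglia from T11 to S1 were dissociated and the EGFP-positive fraction was taken by flow sorting. Pools of 60 ganglia from 3 embryos gave female A and male A, pools of 40 ganglia from 2 embryos gave male C and male D, and the 20 ganglia of a single embryo gave female B and, from another embryo, female C. Female B and female C were entered as a second set of records (record set 2), whose tissue label does not repeat the spinal levels, and the other 4 libraries form record set 1. Dissociation severs axons, so the RNA is that of sorted cells and not of axons. In bulk RNA, fewer cells of a type and less RNA per cell cannot be told apart.

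Depth was 17861500 to 29330101 counts per library, and the 10 isotypes took 1.80% to 2.29% of them. Sensory neuron markers were abundant in every library, with a summed level of 11981 to 16653 TPM over 12 genes. TPM is the count divided by the deposited exon length and scaled to a common total in each library. The 12 glial markers summed to 3795 TPM in male A and to 2034 to 2359 TPM in the other 5 libraries, and the 8 fibroblast markers to 1239 TPM in male A and to 470.5 to 596 TPM in the others. Male A also had the highest summed level of 10 cell cycle markers, 275 TPM against 86.8 to 118 TPM elsewhere, and the lowest sum of neuron markers. None of these lists holds a tubulin gene. Macrophage markers and endothelial and pericyte markers were low, with sums of 21.7 to 40.4 TPM and 12.4 to 42.8 TPM. Among the macrophage markers Ptprc and Csf1r had the lowest means, 0.055 and 0.0998 TPM, and Fcer1g had the highest, 25.9 TPM. Among the endothelial and pericyte markers Rgs5 had the highest mean, 20.4 TPM.

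Isotypes are told apart by short stretches of sequence, and the coding ends of some of them are given here. The lines below give the last 20 codons and the stop codon of Tuba4a and of the 4 beta isotypes with the highest levels or the closest copies, from GENCODE M21 on GRCm38, with glutamate codons in capitals. Each stretch lies within the coding part of the last exon, that of Tuba4a at chr1:75215622-75215684. The beta stretches lie at chr8:123421620-123421682 for Tubb3, chr17:35834982-35835044 for Tubb5, chr13:34074468-34074530 for Tubb2a and chr13:34127471-34127533 for Tubb2b.
Tuba4a: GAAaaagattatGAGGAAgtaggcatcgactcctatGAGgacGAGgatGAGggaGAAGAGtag
Tubb3: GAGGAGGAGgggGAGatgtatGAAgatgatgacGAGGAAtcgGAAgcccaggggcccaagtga
Tubb5: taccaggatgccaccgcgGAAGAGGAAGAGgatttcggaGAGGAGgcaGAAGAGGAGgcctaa
Tubb2a: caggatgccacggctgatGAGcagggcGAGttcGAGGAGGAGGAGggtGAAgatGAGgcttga
Tubb2b: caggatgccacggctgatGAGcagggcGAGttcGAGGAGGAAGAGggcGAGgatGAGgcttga
The Tubb2a and Tubb2b ends differ at 3 bases of 63, and each of these changes leaves the encoded residue the same. Tuba4a closes with the glutamate codon GAG and holds 8 glutamate codons among the 20. Among the beta isotypes they hold 8 in Tubb3, 9 in Tubb5, 8 each in Tubb2a and Tubb2b, 9 in Tubb4a and 10 in Tubb4b. Tubb3 alone among the 6 beta isotypes closes with a lysine codon, AAG; the other 5 close with an alanine codon, GCT or GCC.

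The start of each coding sequence carries the 4-residue signal through which the ribosome-bound factor TTC5 recognises nascent tubulin, Met-Arg-Glu-Cys in alpha and Met-Arg-Glu-Ile in beta. The first 4 codons are given here for the isotype of each kind with the highest mean TPM, with the codons after the start codon in capitals.
Tuba1a: atgCGTGAGTGC
Tubb3: atgAGGGAGATC
All 4 alpha isotypes end this stretch with the cysteine codon TGC and all 6 beta isotypes with the isoleucine codon ATC.

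Over whole coding sequences, the Tuba1 genes are near-identical copies. Tuba1a and Tuba1b, which lie side by side on the minus strand of chromosome 15 (ENSMUSG00000072235, chr15:98949841-98953551 and ENSMUSG00000023004, chr15:98931425-98934565), share 98.3% of their coding bases and differ at 23 of 1356. Tuba1c, on the plus strand nearby (ENSMUSG00000043091, chr15:99029891-99038105), shares 97.6% with Tuba1a and 98.4% with Tuba1b. Tuba4a (ENSMUSG00000026202, chr1:75214228-75219865, minus strand) shares 85.3% with Tuba1a. Tubb2a (ENSMUSG00000058672, chr13:34074301-34078008, minus strand) and Tubb2b (ENSMUSG00000045136, chr13:34127008-34130354, minus strand) share 96.5%, with 47 of 1338 bases different and 551 identical bases in a row. The other beta genes are well separated: Tubb3 (ENSMUSG00000062380, chr8:123411424-123422015, plus strand), Tubb4a (ENSMUSG00000062591, chr17:57080066-57087782, minus strand), Tubb4b (ENSMUSG00000036752, chr2:25222160-25224702, minus strand) and Tubb5 (ENSMUSG00000001525, chr17:35833921-35838306, minus strand) share 82.4% to 84.8% of coding bases with each other and with the Tubb2 genes.

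These copies bear on how far a read can be placed. Cutting the principal transcript of each isotype into windows of 50 bases, every window of Tubb3 was found in no other gene of GENCODE M21, and 99.8% of Tubb4a windows and 99.9% of Tubb5 windows were also their own. The share was 24.5% for Tuba1a, 16.9% for Tuba1b and 39.0% for Tuba1c, whose coding regions match each other and several processed pseudogenes. Gm49450, a gene on the same strand, shares 473 exon bases with Tuba1a and 426 with Tuba1b, and held 38.4% of Tuba1a windows. It has no deposited counts. Windows shared with it were not counted as own, here or in the scales below that use own windows. For Tuba1a, 349 of its 429 own windows reach into an untranslated region and 80 lie within the coding sequence. Tubb2a had 50.4% and Tubb2b 60.7% own windows, and each shared most of the rest with the other. Tubb4b had 44.5%, with 43.6% of its windows also in the processed pseudogene Tubb4b-ps1, which had a mean of 42.5 counts against 6935 for Tubb4b itself. Tuba4a had 51.2%, because 1379 exon bases overlap Stk16, a kinase gene on the opposite strand with a mean of 1127 counts. Read length, and how reads matching several genes were treated, was not given in the sources used here. Counts of Tuba1a, Tuba1b, Tuba1c, Tubb2a, Tubb2b, Tubb4b and Tuba4a are less certain than those of Tubb3, Tubb4a and Tubb5.

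**Figure D1:**
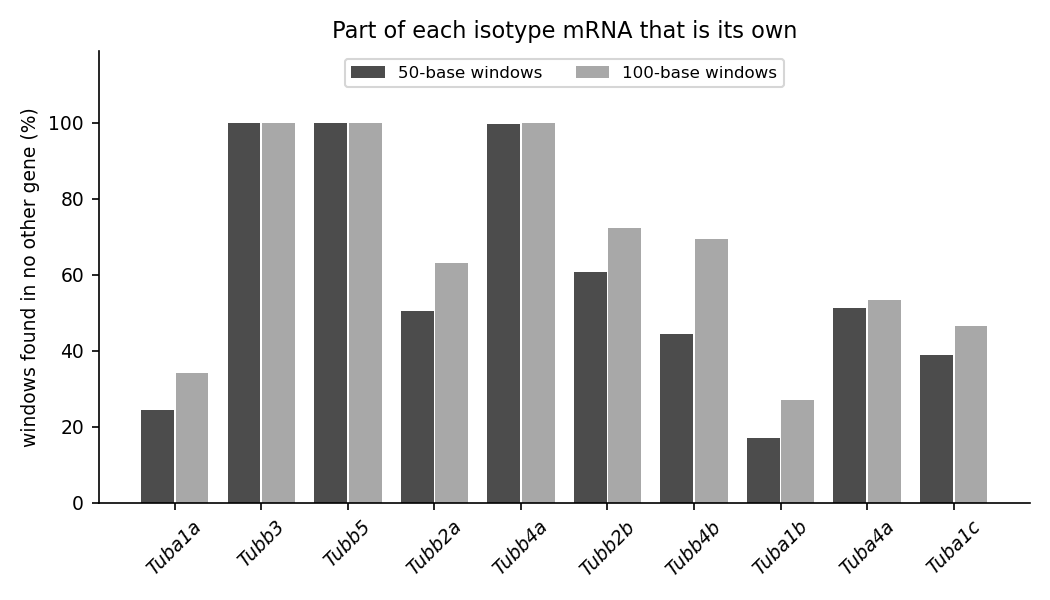
Percentage of windows of each isotype's principal transcript (y axis) that occur in no other gene, for 50-base (dark) and 100-base (light) windows, with isotypes on the x axis in order of mean level. Tubb3, Tubb5 and Tubb4a stand at or near the top of the scale, and Tuba1b is lowest with 16.9% at 50 bases and 27.0% at 100 bases.

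Tuba1a, the main alpha isotype of developing neurons, was the second most abundant transcript of the libraries by mean TPM. It stood at 13447, 13969 and 12853 TPM in females A, B and C, against 14012, 12605 and 14947 TPM in males A, C and D, a mean of 13639 ± 858 TPM (SD, n = 6). The female and male ranges overlapped, and the highest library was 1.19 times the lowest. Tuba1b, an alpha isotype found in most tissues, averaged 403 ± 59.0 TPM, with 405, 374 and 299 TPM in females A, B and C and 439, 449 and 451 TPM in males A, C and D. All 3 females lay below all 3 males, although female A and male A were close. Tuba4a, an alpha gene without an encoded final tyrosine, ranged more widely. It stood at 35.2, 64.7 and 32.9 TPM in females A, B and C and 25.8, 50.5 and 33.3 TPM in males A, C and D. Tuba1c, broadly expressed in other tissues, was lowest of the set at 5.75, 4.01 and 3.84 TPM in females A, B and C and 10.9, 7.04 and 5.29 TPM in males A, C and D. Its counts were 56 to 147 per library, and its highest value was in male A, the library with the highest glial, fibroblast and cell cycle marker sums; the part of those cells in the Tuba1c level was not tested.

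Tubb3, the class III beta-tubulin used as a marker of neurons, was the most abundant beta isotype per length and ranked 13th among all genes by mean TPM. It reached 5449, 7462 and 8027 TPM in females A, B and C and 7023, 7396 and 4597 TPM in males A, C and D, a mean of 6659 ± 1335 TPM (SD, n = 6). Female A and male D lay below the other 4 libraries, and each sex held 1 of the low libraries. Tubb5, a beta isotype found in most dividing and neural cells, averaged 3814 ± 523 TPM, with 3328, 4343 and 4383 TPM in females A, B and C and 3991, 3722 and 3115 TPM in males A, C and D. The same 2 libraries were lowest. The order of Tubb3 and Tubb5 rests on the length: Tubb3 was above Tubb5 in 6 of 6 libraries with the deposited lengths of 1868 and 3327 bases, and likewise in 6 of 6 with the longest annotated transcript or with own windows of 50 or 100 bases, but in 2 of 6 when counts were divided by the coding length or not at all.

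The remaining beta isotypes formed a lower tier. Tubb2a, abundant in neurons, stood at 1665, 1815 and 1568 TPM in females A, B and C, against 1984, 1891 and 1667 TPM in males A, C and D. Tubb2b, the gene of this close pair that is tied to neuronal migration in mouse and human cortex, stood at 988, 1119 and 1089 TPM in females A, B and C, against 926, 1158 and 794 TPM in males A, C and D. Tubb2a exceeded Tubb2b in every library, by 1.44 to 2.14 times. Tubb4a, best known from brain and oligodendrocytes, stood at 1513, 1783 and 1825 TPM in females A, B and C, against 1723, 1839 and 1314 TPM in males A, C and D. Tubb4b, a widely expressed isotype that is prominent in ciliated cells, averaged 425 ± 50.8 TPM and lay between 350 and 481 TPM. Female and male ranges overlapped for all 6 beta isotypes.

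**Figure D2:**
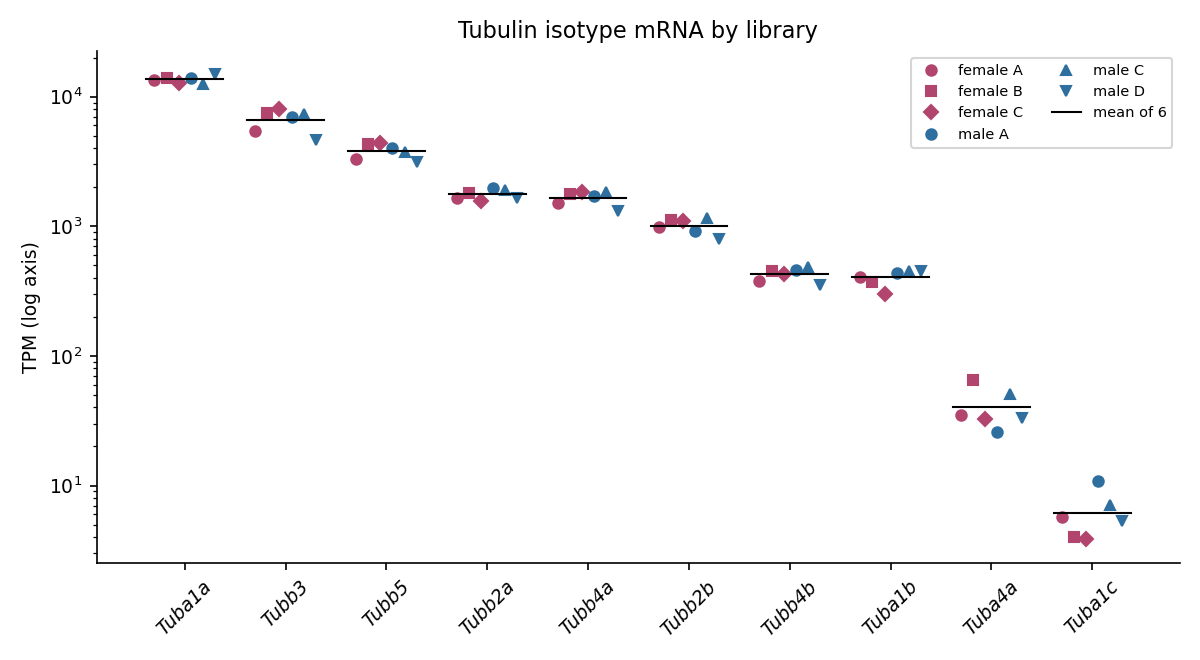
TPM on a log axis of the 10 isotypes in each library, with female libraries (red) left of male libraries (blue), a marker shape per library and a bar at the mean of 6. The isotypes span from 13639 TPM for Tuba1a to 6.14 TPM for Tuba1c, and Tubb3 shows female A and male D below the other libraries.

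Taken in order of mean level, the isotypes ran Tuba1a, Tubb3, Tubb5, Tubb2a, Tubb4a, Tubb2b, Tubb4b, Tuba1b, Tuba4a and Tuba1c. Tubb2a and Tubb4a did not differ beyond their spread: the mean log2 ratio was 0.089 ± 0.19 (SD, n = 6), Tubb2a was the higher in 5 of 6 libraries, and the ranges overlapped. Tubb4b and Tuba1b likewise overlapped, with a mean log2 ratio of 0.083 ± 0.31 and Tubb4b the higher in 4 of 6 libraries. With the deposited lengths, the other 7 neighbours kept their order in 6 of 6 libraries without overlap. The closest of these were Tubb4a over Tubb2b, at a mean log2 ratio of 0.72 ± 0.098, and Tubb3 over Tubb5, at 0.79 ± 0.15. The widest step was between Tuba1b and Tuba4a, at 3.37 ± 0.54.

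Within the alpha pool, Tuba1a made up nearly all of the mRNA. Its share of alpha TPM was 96.8%, 96.9% and 97.5% in females A, B and C and 96.7%, 96.1% and 96.8% in males A, C and D, a mean of 96.8 ± 0.42% (SD, n = 6). Tuba1b followed at 2.91%, 2.59% and 2.27% in females A, B and C and 3.03%, 3.42% and 2.92% in males A, C and D, so that the highest female and the lowest male almost met. Tuba4a and Tuba1c had 0.288 ± 0.105% and 0.0436 ± 0.0182%. Because Tuba1a and Tuba1b have few windows of their own, the alpha shares were also computed with the number of own 50-base windows in place of the length, which gave 95.0% for Tuba1a and 4.77% for Tuba1b. With either scale Tuba1a exceeded Tuba1b many times over, by a mean of 34.4 times with the deposited length and 20.2 times with own windows.

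The beta pool was mixed. Tubb3 held 40.9%, 44.0% and 46.3% of beta TPM in females A, B and C and 43.6%, 44.9% and 38.8% in males A, C and D, a mean of 43.1 ± 2.74% (SD, n = 6). Tubb5 held 24.9 ± 1.27%, Tubb2a 11.7 ± 1.72%, Tubb4a 10.9 ± 0.36%, Tubb2b 6.63 ± 0.58% and Tubb4b 2.78 ± 0.18%. Relative to its mean, Tubb4a had the least variable share of the beta pool, between 10.5% and 11.4% in all 6 libraries, and Tubb2a the most variable, from 9.05% in female C to 14.1% in male D. Divided by coding length instead, the pool read 35.5% Tubb3 and 37.1% Tubb5, and with own 50-base windows it read 34.3% Tubb3, 24.7% Tubb5, 18.2% Tubb2a, 8.64% Tubb4a, 7.63% Tubb2b and 6.53% Tubb4b. Over these scales the mean Tubb3 share spanned 34.3% to 43.1%, about as wide as its range over libraries.

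**Figure D3:**
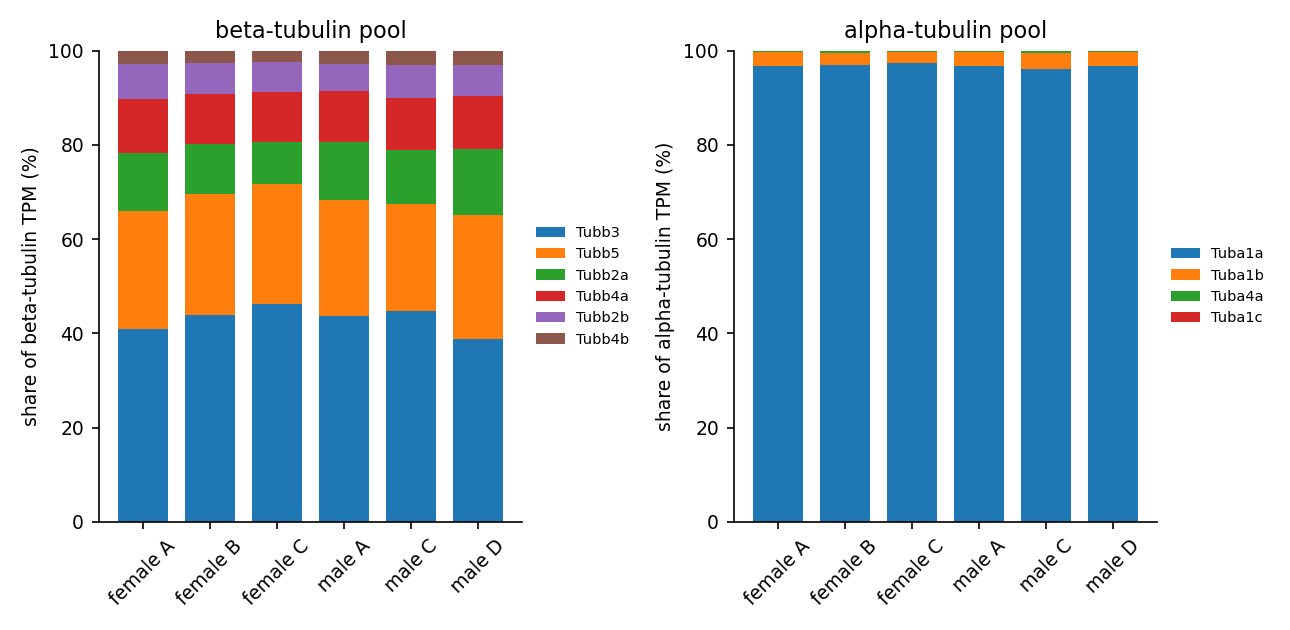
Share in percent (y axis) of each isotype in the summed TPM of the 6 beta (left) and 4 alpha (right) isotypes, with libraries on the x axis, females left of males. Tubb3 takes 38.8% to 46.3% of the beta pool, and Tuba1a takes 96.1% to 97.5% of the alpha pool.

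With the deposited lengths, summed alpha and beta levels were of similar size. The 4 alpha isotypes summed to 13893, 14412 and 13189 TPM in females A, B and C, against 14488, 13112 and 15437 TPM in males A, C and D. The 6 beta isotypes summed to 13322, 16977 and 17322 TPM in females A, B and C, against 16104, 16487 and 11837 TPM in males A, C and D. The alpha sum varied little, whereas the beta sum was lowest in female A and male D, and only in these did alpha exceed beta. The ratio of alpha to beta was 0.942 ± 0.203 (SD, n = 6), from 0.761 in female C to 1.30 in male D. It is bound to the length: dividing by coding length gave a mean ratio of 0.688, and dividing by own 50-base windows gave 2.85.

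**Figure D4:**
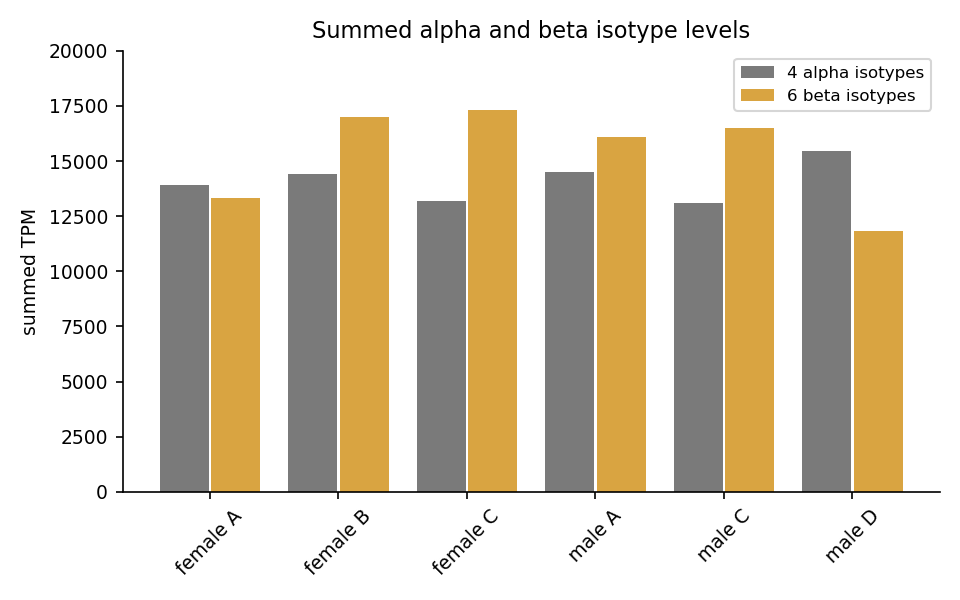
Summed TPM (y axis, from 0) of the 4 alpha (grey) and 6 beta (yellow) isotypes in each library, females left of males. Alpha lies between 13112 and 15437 TPM in all 6 libraries, and beta is lowest in female A and male D at 13322 and 11837 TPM.

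Spread between libraries was read from the coefficient of variation. That of TMM-scaled CPM (counts scaled by the library total) had a median of 15.2% over the 10 isotypes, beside 25.3% over the 14958 genes tested and 18.3% over the 2114 genes of at least 100 CPM. Tubb2a and Tuba1a were the steadiest, at 9.80% and 10.6%, and Tuba1c and Tuba4a the least steady, at 41.0% and 39.6%, with the lowest counts of the set. Tubb3 stood at 23.0%, above the median of abundant genes.

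Tubb3 and Tubb4a had nearly the same pattern over the libraries. Over 6 libraries, log2 CPM of Tubb3 and Tubb4a had a Pearson r of 0.996 and a Spearman rho of 0.943, and without female A and male D, the libraries farthest from the Tubb3 median, r was 0.979. The Tubb3 to Tubb4a ratio in TPM stayed between 3.50 and 4.399. Tubb4a was also the isotype most like Tubb5 (r = 0.933), Tubb4b (r = 0.953) and Tubb2b (r = 0.905). Tubb2a was most like Tubb4b (r = 0.733), Tuba4a most like Tubb2b (r = 0.694), Tuba1b and Tuba1c most like each other (r = 0.564), and Tuba1a most like Tubb2a (r = 0.459). Tubb3 and Tuba1a had an r of 0.0075 over all 6 libraries, and of 0.643 without female A and male D. These values describe 6 libraries and all isotypes of a library share its depth and scaling.

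Among 6819 genes with a mean of at least 20 CPM, those most like Tubb3 were Fsd1, a microtubule-associated protein gene (r = 0.998), Cdc42ep2, which encodes a CDC42 effector (r = 0.997), Tubb4a itself, Taf8, a subunit of the general transcription factor TFIID (r = 0.996), and Ppp2r1a, the scaffold subunit of protein phosphatase 2A (r = 0.995). Ppp2r1a stood at 838 CPM in female A, 1122 CPM in female B and 1111 CPM in female C, and at 1016, 964 and 777.5 CPM in males A, C and D. Female A and male D were lowest for Ppp2r1a, which follows from choosing it by its likeness to Tubb3 and is no separate finding. With 6819 genes compared over 6 libraries, some high r values arise by the choice alone. Those most like Tubb5 were Arfgap3 (r = 0.991), Sdhc (r = 0.988), Gatd1 (r = 0.987), Selenow (r = 0.985) and Gatad2a (r = 0.985). Selenow, which encodes a selenoprotein, stood at 1070 CPM in female A, 1768 CPM in female B and 1776 CPM in female C, and at 1527, 1283 and 1167 CPM in males A, C and D.

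Base composition was read beside the low libraries. Of the genes tested, 89.6% had a protein-coding transcript whose GC content could be read. With genes split by GC into 5 equal groups, the mean log2 deviation of the highest group minus that of the lowest was -0.30, -0.16 and -0.036 in females A, B and C and 0.84, 0.12 and -0.47 in males A, C and D. Female A and male D, with low Tubb3 and Tubb4a, were also the libraries with the lowest values, while male A had the highest value and a Tubb3 deviation of 0.098. Females B and C had negative values and the highest Tubb3 deviations, 0.32 and 0.37. The Tubb3 and Tubb4a transcripts had 57.9% and 57.2% GC, the highest of the set, within the highest GC group, which began at 55.8%, and Tuba1a had 53.2%. Tubb5 and Tubb2b, with r of 0.921 and 0.884 to Tubb3, had 52.0% and 51.2% GC, the lowest of the set, while Tuba1c, at 56.3% also in the highest GC group, had an r of -0.154. Summed erythroid markers were 202, 58.4 and 128.5 TPM in females A, B and C and 48.4, 37.2 and 183 TPM in males A, C and D, again highest in female A and male D. The part of base composition or of erythroid cells in the Tubb3 values was not tested.

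To compare the sexes, each isotype was tested with edgeR across all genes. Of the 10 isotypes, 0 passed an adjusted p of 0.05, 0 had an unadjusted p under it, and DESeq2 and limma voom also called 0. Over all genes 4 of 14958 passed, or 0.0267%, and 661 had an unadjusted p under 0.05. Adjusted p of the isotypes lay between 0.961 and 0.996 with Benjamini-Hochberg adjustment. Of the 10, 7 had higher fitted values in females and 3 lower, with a median log2 change, female minus male, of 0.11, beside -0.0036 for all genes tested. This tally depends on the libraries and the model: with record set as a term 1 of 10 (Tubb2b) was higher and 9 were lower, with a median of -0.17, and the same counts held in record set 1 alone. Without female B, 4 were higher and 6 lower. Of 57 cell type markers tested, 14 had an unadjusted p under 0.05 by edgeR, of which the neuron markers Pou4f1, Prdm12 and Snap25 were the 3 with higher fitted values in females, and 11 markers of glia, fibroblasts, vessels, macrophages and dividing cells had lower ones. None of the 57 passed the adjusted test by edgeR, DESeq2 or limma voom, and their part in the isotype values was not tested. P-values here set the difference between groups against the spread between libraries within groups, and these libraries hold 1 to 3 embryos each.

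The fitted change was largest for Tuba1c, at -0.70 on the log2 scale (SE 0.36, adjusted p = 0.961 by edgeR), with a mean of 4.53 ± 1.06 TPM in females and 7.75 ± 2.88 TPM in males (SD, n = 3 each). Without male A, the library with its highest level, it was -0.35, and without male A and male C -0.22. Tuba4a followed at 0.39 (SE 0.34). Tubb3 had 0.24 (SE 0.24), from 6979.5 ± 1355 TPM in females and 6338 ± 1520 TPM in males, and 2 SE either side ran between -0.25 and 0.73. Tuba1a had 0.032 (SE 0.18), so that 2 SE either side ran between -0.32 and 0.38. Tuba1b, the isotype whose female and male ranges did not overlap, had -0.24 (SE 0.19), with 359 ± 54.3 TPM in females and 446 ± 6.36 TPM in males. It was 1 of 10 isotypes with no overlap in TPM, beside 8.49% of all genes tested. In the pool shares, which have no counterpart over all genes, Tuba1b and Tubb4b were the 2 of 10 without overlap. The Tubb4b share was 2.66 ± 0.18% in females and 2.91 ± 0.059% in males. Female A at 2.836% almost met male A at 2.842%, and females B and C, which form record set 2, had 2.67% and 2.48%. The TPM of Tubb4b overlapped between the sexes. Fits that took record set into account gave Tubb3, Tubb4a and Tubb5 the opposite sign, at -0.25, -0.14 and -0.16. Tuba1a, Tuba4a and Tubb4b also changed sign, to -0.092, -0.083 and -0.22 with record set as a term. No direction is given for any of these isotypes.

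The record sets were compared with sex as a term, record set 2 being female B and female C. The edgeR test called 0 of 10 isotypes and 0 of 14958 genes (0%), and 1 isotype and 483 genes had an unadjusted p below 0.05. DESeq2 called 13 genes and 0 isotypes, and limma voom 0 genes. Tubb5 had a log2 change of 0.58 (SE 0.24, unadjusted p = 0.0476, adjusted p = 1.00 by edgeR), with 4343 and 4383 TPM in record set 2 and 3115 to 3991 TPM in record set 1. Tubb3 had 0.69 (SE 0.30, unadjusted p = 0.0530 by edgeR), with 7462 and 8027 TPM in record set 2 and 4597 to 7396 TPM in record set 1. The record sets did not overlap in TPM for 4 of 10 isotypes, Tubb3, Tubb5, Tuba1b and Tuba1c, beside 23.7% of all genes tested. Of the 10 isotypes, 8 had higher fitted values in record set 2 and 2 lower, with a median log2 change of 0.38, beside -0.0011 for all genes tested. With sex in the model, this contrast sets female B and female C against female A, 1 of the 2 libraries with low beta isotypes. Number of embryos cannot be told apart from record set, since only record set 2 has libraries of 1 embryo.

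**Figure D5:**
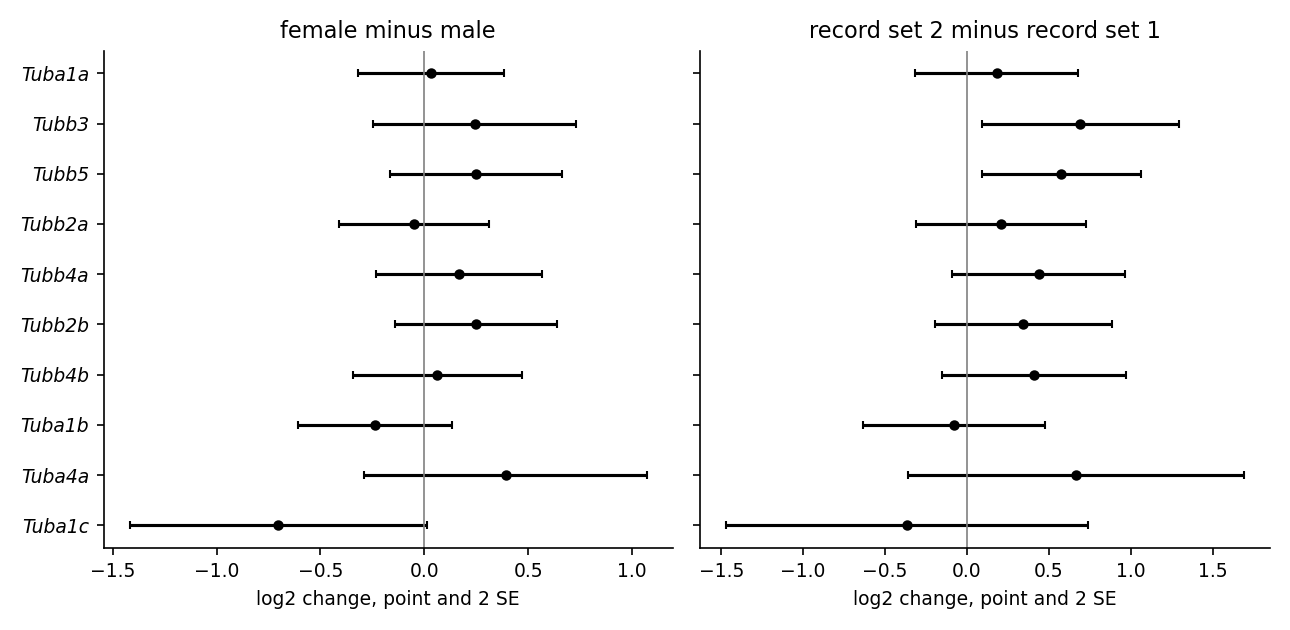
Fitted log2 change of each isotype (x axis) with bars of 2 SE, female minus male (left) and record set 2 minus record set 1 (right). On the left all 10 bars reach across 0; on the right those of Tubb3 and Tubb5 lie above it, at 0.69 and 0.58, and neither isotype passed the adjusted test.

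The 6 minor isotypes added 0.0795% to 0.455% to the summed TPM of the set. Tubb6, a beta isotype of non-neuronal cells, stood at 30.0, 33.2 and 28.4 TPM in females A, B and C, against 139, 42.1 and 21.1 TPM in males A, C and D. The high value was that of male A, the library with the highest glial, fibroblast and cell cycle sums; their part in it was not tested. Tuba8 had 2 to 12 counts per library and Tuba3b at most 3, Tuba3a at most 1, and Tubb1, the platelet isotype, at most 2. Tubal3 had 0 counts in each library, which allows up to 3 counts per library. Gamma-tubulin, which nucleates microtubules, was represented by Tubg1 at 83.6 ± 12.0 TPM and Tubg2 at 55.4 ± 9.67 TPM, and Tubd1 and Tube1, which act at centrioles, were at 18.3 and 6.81 TPM.

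Genes that fold and modify tubulin were read beside the isotypes. The 9 lists of isotype relatives and pathway genes held 60 genes, of which 50 were tested. By edgeR, DESeq2 and limma voom, 0 of the 50 were called between the sexes and 0 between record sets, and 0 had an unadjusted p under 0.05 in either edgeR comparison. Over all 14958 genes tested, edgeR called 4 (0.0267%) between the sexes and 0 between record sets, so 0 calls among 50 lie near the share over all genes. An unadjusted p under 0.05 was held by 661 of the 14958 between the sexes and by 483 between record sets. Nascent tubulin passes from prefoldin to the CCT chaperonin, and then to cofactors that join alpha to beta. All 6 prefoldin genes were tested, led by Vbp1 at 500.2 ± 198 TPM, Pfdn1 at 348 ± 22.3 TPM and Pfdn5 at 304 ± 46.9 TPM. Vbp1 was the uneven one, at 572, 589 and 579 TPM in females A, B and C and 366, 170.1 and 724 TPM in males A, C and D. Of the 9 CCT genes, Cct5, Cct7 and Cct6a led, at 1040 ± 139, 1021 ± 134 and 819 ± 157 TPM, and Cct6b, a testis form, averaged 0.804 TPM. Tbca, which holds beta-tubulin, and Tbcb, which holds alpha-tubulin, led the 7 cofactor genes at 720 ± 126 and 572 ± 100.1 TPM, followed by the GTPase Arl2 at 117 ± 22.6 TPM.

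Ttc5, whose product binds the signal encoded by the first 4 codons and starts decay of tubulin mRNA, stood at 118, 169 and 169 TPM in females A, B and C, against 163, 149 and 109.7 TPM in males A, C and D. Female A and male D were lowest, as for Tubb3. Cnot11, a subunit of the deadenylase complex that acts in this decay, averaged 3.05 ± 0.85 TPM.

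Most genes of the tail-modifying enzymes were low: of 19 glutamylase, glycylase and deglutamylase genes, 14 averaged under 3 TPM, and Ttll2 had 0 counts in every library, which allows up to 3 counts per library. Ttl, the ligase that restores the tyrosine to alpha tails, averaged 40.5 ± 3.71 TPM and was steady over libraries, between 35.5 and 46.3 TPM. Of the tyrosine-removing enzymes, Vash2 averaged 13.9 ± 1.42 TPM and Vash1 1.81 TPM, with their partner Svbp at 163 ± 25.3 TPM. Glutamate chains are added by TTLL enzymes, of which Ttll1 and Ttll7 were highest at 168 ± 21.6 and 87.5 ± 37.7 TPM, and are trimmed by Agtpbp1, at 47.4 ± 15.9 TPM. Ttll7 ranged from 61.9 to 133 TPM in females and from 37.1 to 127 TPM in males, lowest in male A. Of the genes for acetylation of alpha-tubulin, the acetylase Atat1 averaged 29.4 ± 4.70 TPM and the deacetylases Sirt2 and Hdac6 102 ± 28.8 and 24.9 ± 4.28 TPM.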

How the data were processed

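Per the labels' protocols, cDNA of the sorted cells was amplified with a SMARTer low-input kit. Its reads carry no molecular identifiers, so limits of counts cover counting error only. The submitters' processing notes name Subread, featureCounts 1.4.5 and GRCm38.p2; strand, multi-mapping and read length were not given in the sources used here. Per the file headers, the authors deposited raw counts per Ensembl gene, with exon Length in bases. The deposited CPM values are counts over library totals, and the deposited RPKM values are CPM per kilobase, per the file headers; both were recomputed from counts and not used further.

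TPM and isotype shares were computed from counts and Length. The sexes were compared by the quasi-likelihood test of edgeR 4.0.16, run in R 4.3.3 (TMM factors, filterByExpr on sex, Benjamini-Hochberg over 14958 genes, threshold 0.05, effects female minus male), and record sets likewise with sex as a term. DESeq2 1.42.0 and limma 3.58.1 were alternatives, beside other scalings and each library left out. Coding sequences, identities (Biopython) and shared windows came from GENCODE M21. Members and lists were chosen with earlier results of these data known. Named genes were the 10 isotypes, the 6 minor isotypes, the 3 of each pathway list with the highest mean TPM, the isotype most like each isotype, and the 5 genes most like Tubb3 and Tubb5; other names were chosen after their values were seen. Tubulin counts of near-identical copies are uncertain, as stated beside them. The coding ends of some isotypes are not reported here.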

Additional observations from a re-analysis of the deposited data

Results flagged for a closer look

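Of 70 levels and shares examined over the 6 libraries, 2 had a library that stood apart from the other 5 by the gap to its nearest neighbour relative to the whole range, where chance flags about 1 in 20 groups. Tubb6, the beta isotype of non-neuronal cells, stood at 139 TPM in male A, with a gap of 0.822 of the range, against 21.1 to 42.1 TPM in the other libraries. Male A also had the highest summed glial, fibroblast and cell cycle markers, and their part in this value was not tested. Tbcd, a tubulin folding cofactor, stood at 43.2 TPM in male C, with a gap of 0.651 of the range, against 25 to 31.3 TPM in the other libraries.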

How the results depend on the processing

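No isotype was called in either comparison under any setting run. Over all genes, the count called between the sexes, 4, was 14 with no filter on low counts, 13 with DESeq2, 1 with limma voom, 0 with record set as a term, 0 in record set 1 only, and 0 to 5 with 1 library left out, 0 being without female A. The replicate letters A and C mark no shared litter in the labels, and libraries of the same letter had correlations of -0.078 and 0.052; the letter as a replicate block gave 77 calls. Between record sets the count, 0, was 3 with no filter, 13 with DESeq2, 3 without a sex term and 115 in females only, and without female A it could not be estimated. The cause was not tested.

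Of the refitted sex changes 27 had the opposite sign and 133 the same sign. With plain library totals, which move the median of all genes to -0.12, Tuba1a was -0.080 and Tubb4b -0.064. With a library left out, Tuba1a lay between -0.073 and 0.12, Tuba4a between -0.051 and 0.63, Tubb2a between -0.15 and 0.024, Tubb4b between -0.040 and 0.19, and Tuba1c between -0.90 and -0.35, -0.35 being without male A. With the replicate block, Tuba4a was -0.022, Tubb3 -0.058, Tubb4a -0.033 and Tubb4b -0.15. With record set as a term, Tuba1a was -0.092, Tuba4a -0.083, Tubb3 -0.25, Tubb4a -0.14, Tubb4b -0.22 and Tubb5 -0.16, and in record set 1 only they were -0.093, -0.086, -0.25, -0.14, -0.22 and -0.16. Without male A and male C, chosen after seeing the data, Tuba1a was -0.14 and Tubb2a 0.029. Between record sets, Tuba1b lay between -0.28 and 0.098 with a library left out.

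Tuba1a held 96.1% of alpha by coding length, 96.1% with no division by length, 96.2% by the longest transcript, and 95.0% and 95.5% by own windows of 50 and 100 bases, chosen after seeing the data. Tubb3 held 35.5%, 35.8%, 34.3% and 37.0% of beta by coding length, no division, and own windows of 50 and 100 bases; the Tubb3 share was 42.4% to 43.9% and the Tuba1a share 96.7% to 96.9% with a library left out.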
